A study of Nothobranchius furzeri and Iconisemion striatum and Callopanchax occidentalis with 18 samples.

Results

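The miR-430 family was followed through small RNA libraries of killifish embryos, sequenced whole at the somite stage, the time of body axis segmentation. Its members were taken as all rows of the deposited count table whose name begins with miR-430, which gave 8 of 291 mature miRNAs, read over all 18 libraries. Of these rows, 4 are 3p arms (miR-430a-3p, miR-430b-3p, miR-430c-3p and miR-430i-3p) and the others are 5p arms (miR-430a-5p, miR-430a-11-5p, miR-430a-13-5p and miR-430a-14-5p).

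A mature miRNA is cut from one arm of an RNA hairpin, and the pairing of its seed, a short stretch near its 5′ end, selects the messenger RNAs it represses. In teleost fish, miR-430 is transcribed from a large repeated cluster when the embryonic genome switches on. In zebrafish it is known for clearing maternal messenger RNAs at that switch and for shaping early morphogenesis. The 3p arm is the one known to act in zebrafish, and the 5p arm is its partner strand.

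The embryos in diapause, a reversible developmental arrest, came from 3 species labelled annual. Nothobranchius furzeri gave 5 such libraries: replicate 1 of strain MZM0403, replicates 2 and 3 of strain MZM0410, and replicates 4 and 5 of strain GRZ x MZZW, with 2 weeks in diapause stated for replicate 3, 1 month for replicate 4 and 2 months for replicate 5. Callopanchax occidentalis and Nematolebias papilliferus gave 1 library each. Embryos not in diapause were sequenced from N. furzeri strain MZM0410 (3 libraries) and from 5 species labelled non-annual: Aphyosemion striatum (listed as Iconisemion striatum, 4 libraries) and, with 1 library each, Aplocheilus lineatus, Austrofundulus leohoignei, Rivulus cylindraceus and Epiplatys dageti monroviae. No treatment or genetic change is given for any group, and neither ages nor the number of embryos per library were found in the sources. Whether replicate libraries came from separate clutches is not stated, and a p-value therefore reflects only how far these libraries spread, which may be technical.

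Counts on miRNAs ranged from 371908 to 4177400 per library and made up 1.43% to 77.3% of the 18 to 33 nt reads. The library names put 8 libraries in lane 1, 9 in pool 3 and 1 in pool 2, and all N. furzeri libraries not in diapause were in pool 3. For lane 1 the names give a lane number only, and whether those libraries shared a run is not stated. Muscle miRNAs (miR-1, miR-133, miR-206 and miR-499) took 0.00622% to 0.0804% of counts, and each library had counts in 4 to 6 of their 6 rows. The neural pair miR-9-5p and miR-124-3p took 0.00422% to 0.237%. Among the N. furzeri libraries, diapause replicate 1 stood apart with the highest neural share (0.237%) and the highest let-7 share (0.285%). The other N. furzeri diapause libraries had at most 0.0230% and 0.0354%. Outside that species, A. striatum replicate 4 had a let-7 share of 0.227%. In whole embryos, fewer cells holding a miRNA and less of it per cell cannot be told apart.

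Nearly all of the family signal came from its a and c members on the 3p side. In counts pooled over all libraries miR-430a-3p held 75.1% of the family's counts, miR-430c-3p 24.7% and miR-430a-5p 0.204%. These pooled values lean on the A. striatum libraries, which had the most family counts. Per library, miR-430c-3p held 28.6% to 34.3% of the family's counts in A. striatum and 6.47% to 12.5% in N. furzeri. The other members were rare. miR-430b-3p had 454 counts in all, 399 of them in E. dageti monroviae, and it was at 0 in 13 libraries. miR-430i-3p had 140 counts, at most 21 in any library. The rows miR-430a-11-5p, miR-430a-13-5p and miR-430a-14-5p had 1 count each, all in A. striatum, which is under the 3 counts that a count of 0 allows. So 5 of 8 members reached 10 counts in at least 1 library, and a species whose sequence departs from the counting reference could have lost counts, which was not tested.

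**Figure D1:**
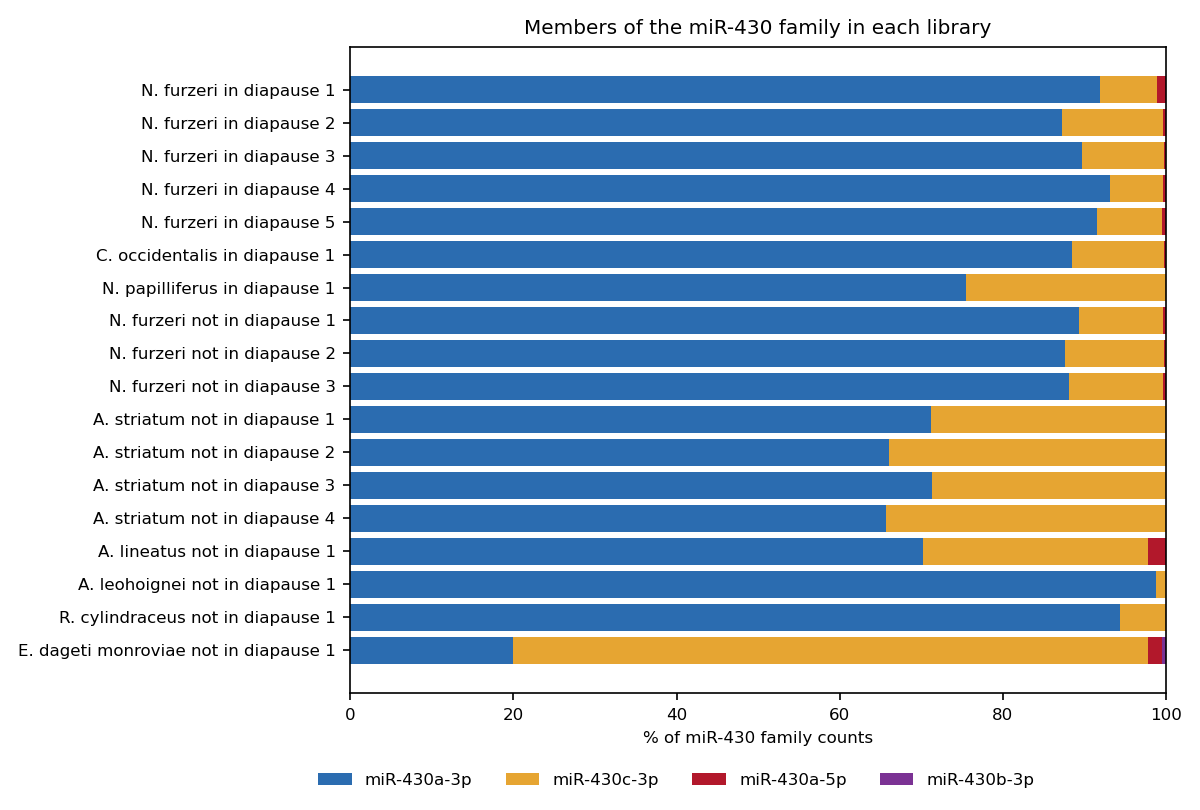
Each bar is 1 library and shows the percent of its miR-430 family counts held by miR-430a-3p, miR-430c-3p, miR-430a-5p and miR-430b-3p; the remaining rows are too rare to be seen. miR-430a-3p fills most of every bar except that of E. dageti monroviae, where miR-430c-3p holds 77.8%.

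The family's share of all miRNA counts ran over a wide range between species. In N. furzeri in diapause it was 2.58%, 11.2%, 6.45%, 1.87% and 3.23% in replicates 1 to 5. In the other embryos in diapause it was 0.840% in C. occidentalis (95% Wilson interval 0.820% to 0.861%) and 1.39% in N. papilliferus (1.37% to 1.42%). In N. furzeri not in diapause it was 4.32%, 20.9% and 11.8% in replicates 1 to 3. These N. furzeri groups overlapped, and both other annual species lay below every N. furzeri library.

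Among the non-annual species A. striatum held 33.9%, 34.4%, 64.1% and 52.4% in replicates 1 to 4. R. cylindraceus held 65.5% (65.4% to 65.7%), E. dageti monroviae 16.3% (16.2% to 16.4%) and A. lineatus 11.5% (11.5% to 11.6%). A. leohoignei held 1.91% (1.88% to 1.94%), the lowest of the non-annual species. From high to low by mean, the order was R. cylindraceus, A. striatum, E. dageti monroviae, N. furzeri not in diapause, A. lineatus, N. furzeri in diapause, A. leohoignei, N. papilliferus and C. occidentalis. E. dageti monroviae and A. lineatus lay inside the range of N. furzeri not in diapause, and A. leohoignei lay inside the range of N. furzeri in diapause, so these neighbours did not differ beyond the spread between libraries. The Wilson intervals cover counting error only, and a single library has no replicate check.

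**Figure D2:**
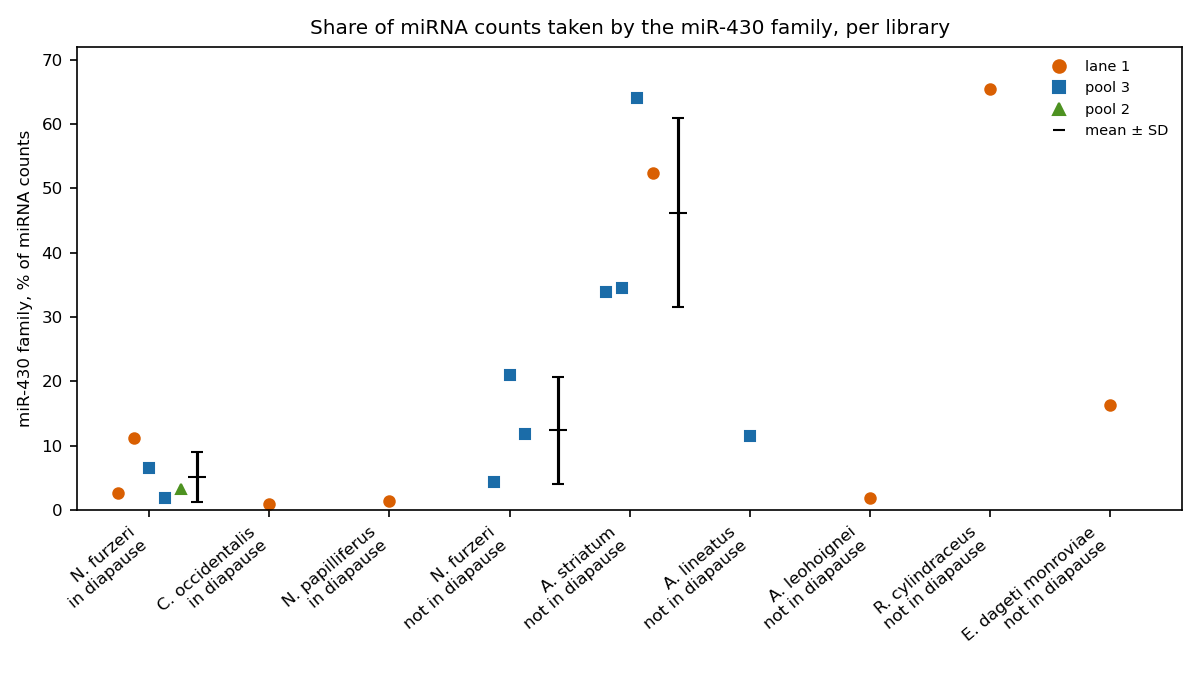
Points are libraries, coloured and shaped by the lane or pool in the library name. The vertical axis is the percent of a library's miRNA counts on miR-430 rows, and black bars are mean ± SD for groups with replicates. A. striatum spans 33.9% to 64.1%, above all N. furzeri libraries, and C. occidentalis is lowest at 0.840%.

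The order of the species depended on what the family was measured against. The Hox cluster miRNAs miR-10 and miR-196 took 70.3% to 92.6% of counts in N. furzeri in diapause, 64.6% to 83.6% in N. furzeri not in diapause and 22.1% to 56.0% in A. striatum. Without those rows in the total, the family held 8.75% to 37.9% in N. furzeri in diapause, 26.3% to 59.1% in N. furzeri not in diapause and 67.3% to 85.2% in A. striatum. C. occidentalis then stood at 11.2%, R. cylindraceus at 69.7% and A. leohoignei at 3.72%, which was the lowest of all libraries. Against all 18 to 33 nt reads, which include small RNAs other than miRNAs, the shares were 0.339% to 1.44%, 0.917% to 6.87% and 3.30% to 14.3% in the same 3 groups. R. cylindraceus then had 2.48%, below every A. striatum library and inside the range of N. furzeri not in diapause. E. dageti monroviae had 0.232% by this measure, below every N. furzeri library. N. papilliferus was then lowest at 0.161%, while C. occidentalis had 0.468%.

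miR-430c-3p, a 3p member that carries the family seed in zebrafish, varied widely between species in its ratio to miR-430a-3p. Each read was counted once whatever the length of its miRNA, so no length scaling was applied. These are ratios of read counts, and how closely they follow ratios of molecules was not tested. N. furzeri in diapause had 7.59, 14.3, 11.1, 6.94 and 8.82 miR-430c-3p counts per 100 miR-430a-3p counts in replicates 1 to 5. N. furzeri not in diapause had 11.5, 13.8 and 13.2, and A. striatum had 40.4, 51.3, 40.1 and 52.3. All A. striatum libraries therefore lay above all N. furzeri libraries, and the gap between the species (14.3 to 40.1) was wider than the range within either.

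The other annual species in diapause had 12.7 (C. occidentalis), inside the N. furzeri range, and 32.6 (N. papilliferus), outside it. A. lineatus had 39.4, next to A. striatum. R. cylindraceus, whose family share was the highest, had 5.90, below every N. furzeri library. A. leohoignei had 1.18, the lowest ratio, with 243 miR-430c-3p counts beside 20569 of miR-430a-3p. E. dageti monroviae stood at the other end with 389.6, the single library of 18 in which miR-430c-3p (66407 counts) outnumbered miR-430a-3p (17043 counts). That library also held the lowest miRNA share of reads, 1.43%, and most of the miR-430b-3p counts; the part of either in its ratio was not tested.

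miR-430a-5p differed widely between species in its counts. N. furzeri in diapause had 377, 189, 476, 270 and 170 counts of it across replicates 1 to 5, and C. occidentalis had 16. N. furzeri not in diapause had 707, 740 and 942, A. lineatus 2879 and E. dageti monroviae 1480. In A. striatum it had 0, 10, 2 and 0 counts in replicates 1 to 4. It was at 0 in N. papilliferus, A. leohoignei and R. cylindraceus.

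As these libraries differ in depth and in family level, the 5p rows were read against the 3p rows of the same library. In N. furzeri in diapause, replicates 1 to 5 had 10.6, 2.91, 2.90, 3.54 and 4.23 counts of 5p arms per 1000 counts of 3p arms. The same ratio was 2.52 in C. occidentalis (exact Poisson interval 1.44 to 4.09) and 3.93, 2.76 and 3.13 in N. furzeri not in diapause. A. lineatus had 21.9 (21.1 to 22.7) and E. dageti monroviae 17.7 (16.8 to 18.6), the highest ratios. All of these but N. furzeri diapause replicate 1, A. lineatus and E. dageti monroviae lay between 2.52 and 4.23. A. striatum had 15 counts of 5p arms beside 2410949 of 3p arms over its 4 libraries, or 0.00622 per 1000 (0.00348 to 0.0103). A count of 0 allows up to 0.232 per 1000 in N. papilliferus, 0.144 in A. leohoignei and 0.0123 in R. cylindraceus. Each of these limits lay below the 2.52 of C. occidentalis but above the 0.00622 of A. striatum. A level as low as that of A. striatum could therefore not be told from 0 in these species. Whether the 5p sequence of these species departs from the counting reference was not tested.

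**Figure D3:**
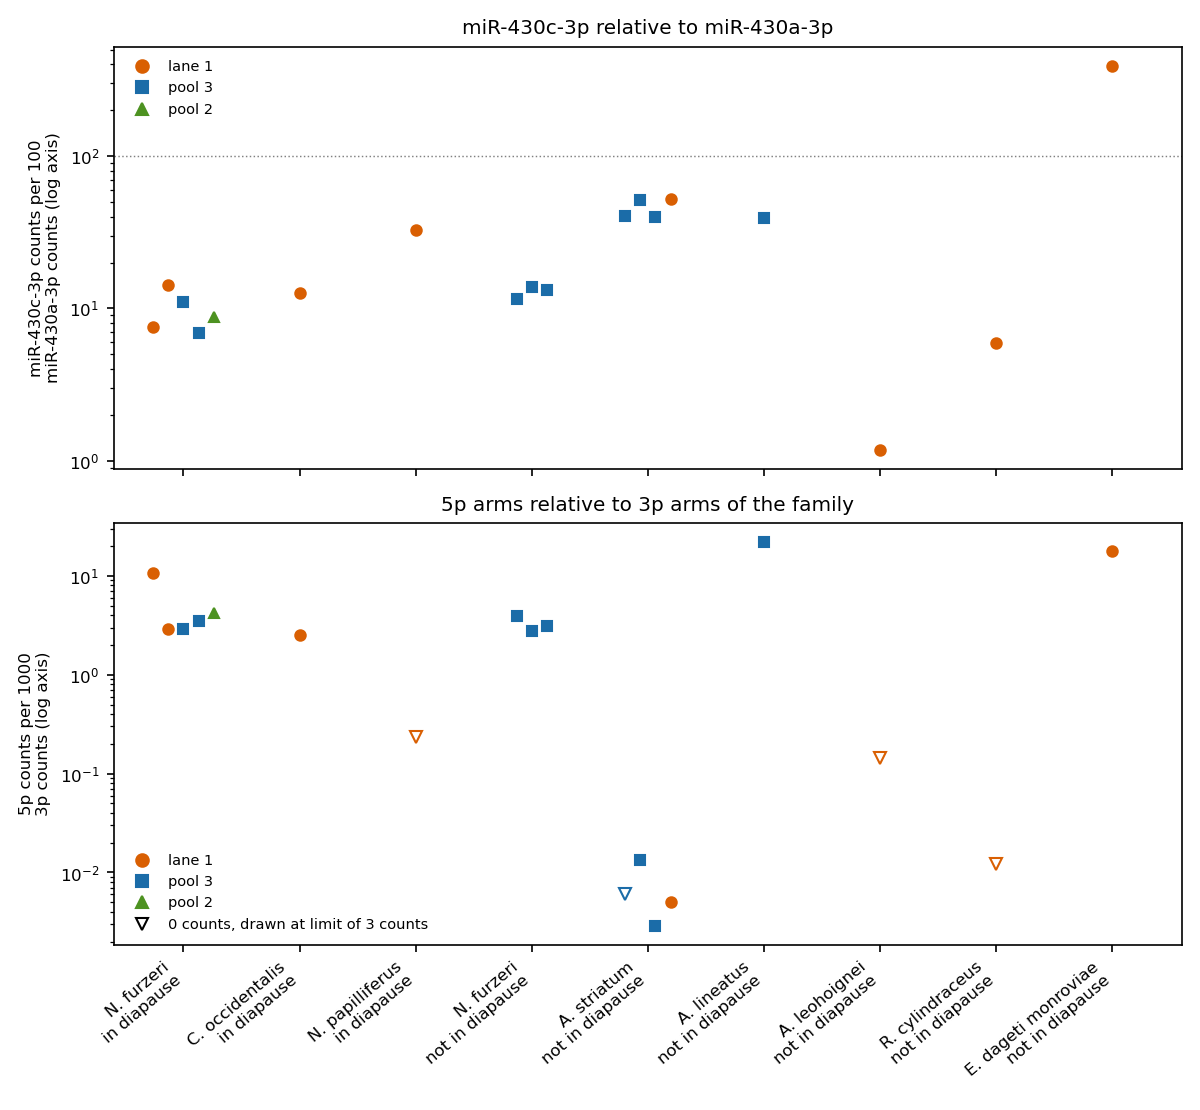
Upper panel: miR-430c-3p counts per 100 miR-430a-3p counts in each library, on a log axis with a dotted line at 100, where both are equal. Lower panel: counts of the family's 5p arms per 1000 counts of its 3p arms, on a log axis, with open triangles at the limit of 3 counts for libraries at 0. E. dageti monroviae stands at 389.6 in the upper panel, and the A. striatum libraries lie at or under 0.0133 in the lower one.

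N. furzeri in diapause was compared with N. furzeri not in diapause. The family averaged 5.07% ± 3.87 of counts in diapause and 12.4% ± 8.32 outside it (SD, n = 5 and 3), so the difference was -7.30 percentage points. The two-sided exact permutation test gave p = 0.125, and adjustment over the 16 tests of shares and ratios gave an adjusted p of 0.250. Leaving out a library not in diapause moved the difference to -3.01 points without replicate 2 and to -11.3 points without replicate 1, and within strain MZM0410 it was -3.52 points. The smallest p that this design allows is 0.0179. Of the 4 members that passed the filter on low counts, edgeR's quasi-likelihood test called 0, against 0% of the 161 miRNAs tested, with 24 miRNAs at an unadjusted p under 0.05. DESeq2 called 4 miRNAs, none of them a miR-430 member. On the log2 scale the fold changes were -1.29 for miR-430a-3p (SE 0.62, adjusted p = 0.352), -1.59 for miR-430c-3p (SE 0.74, adjusted p = 0.346), -1.04 for miR-430a-5p (SE 0.41, adjusted p = 0.264) and -0.49 for miR-430i-3p (SE 0.73, adjusted p = 0.710). The median of these 4 values was -1.17, beside 0.14 over all miRNAs tested, and 0 of the 4 had groups that did not overlap, beside 8.70% of all tested. With replicate 2 of N. furzeri not in diapause left out, these fold changes were -0.52, -0.77, -0.43 and 0.18.

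The ratios between members were also compared between these states. The mean log2 ratio of miR-430c-3p to miR-430a-3p was -3.41 ± 0.42 in diapause and -2.97 ± 0.14 outside it, a difference of -0.44 (exact permutation p = 0.161, adjusted p = 0.257). The log2 ratio of 5p to 3p arms was -7.89 ± 0.78 in diapause and -8.27 ± 0.26 outside it, a difference of 0.38 (exact permutation p = 0.571, adjusted p = 0.762). Diapause replicate 1, which carried the high neural and let-7 shares, held the outlying 5p ratio; the part of those markers in it was not tested. Without that library the difference was 0.052, and the adjusted p over the libraries left out in turn lay between 0.571 and 0.990.

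Strain went with both the share of miRNA counts and the ratio among the N. furzeri libraries, a pattern noticed in the values and not tested. The 3 diapause libraries of strains MZM0403 and GRZ x MZZW held the family at 1.87% to 3.23% of counts, and the 5 libraries of MZM0410 at 4.32% to 20.9%. For miR-430c-3p the libraries of those 2 strains had 6.94 to 8.82 counts per 100 of miR-430a-3p and the MZM0410 libraries 11.1 to 14.3. The strains thus did not overlap in this ratio or in the share of miRNA counts. Against all 18 to 33 nt reads the family shares did overlap, at 1.32%, 1.44% and 0.422% in diapause replicates 1, 4 and 5. In MZM0410 these were 0.339% and 0.755% in diapause replicates 2 and 3, and 0.917% to 6.87% outside diapause. Within MZM0410, the diapause libraries (replicates 2 and 3) held 11.2% and 6.45% and the libraries not in diapause 4.32%, 20.9% and 11.8%. The ratio there was 14.3 and 11.1 in diapause and 11.5, 13.8 and 13.2 outside it, a log2 difference of -0.020 (exact permutation p = 1, with 0.1 the smallest possible). Strains other than MZM0410 were sequenced in diapause only, so the strain and the state cannot be told apart in those libraries. Time in diapause cannot be told apart from strain either. The GRZ x MZZW libraries were those with 1 and 2 months stated, and the only time stated for MZM0410 was 2 weeks.

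**Figure D4:**
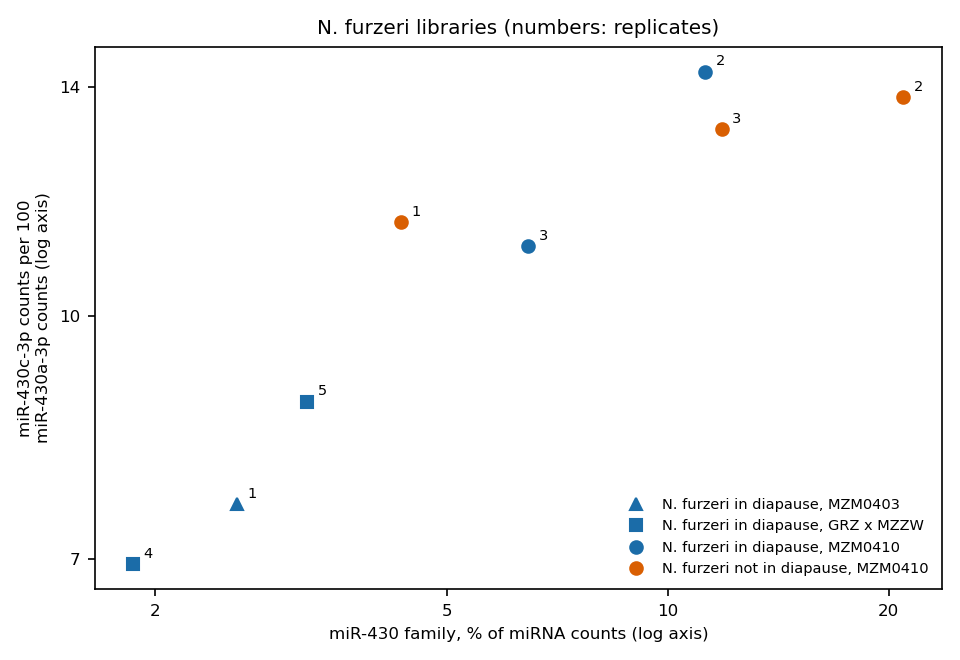
Each point is an N. furzeri library, with its replicate number; the horizontal log axis is the family's percent of miRNA counts and the vertical log axis the miR-430c-3p counts per 100 miR-430a-3p counts. The 3 diapause libraries of MZM0403 and GRZ x MZZW lie lowest on both axes (1.87% to 3.23% and 6.94 to 8.82), and MZM0410 libraries of both states mix above them.

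N. furzeri not in diapause was compared with A. striatum, also not in diapause, which contrasts an annual with a non-annual species in the same labelled state. miR-430c-3p was lower in N. furzeri, with 0.443%, 2.53% and 1.37% of counts in its replicates 1 to 3, against 9.76%, 11.7%, 18.3% and 18.01% in A. striatum. The groups did not overlap, and the log2 fold change was -3.31 (SE 0.80, edgeR adjusted p = 0.0135). miR-430a-3p held 3.86%, 18.4% and 10.4% in N. furzeri, against 24.2%, 22.8%, 45.7% and 34.4% in A. striatum. Its shares did not overlap either, but on the TMM scale they did, and it did not pass (-1.61, SE 0.79, adjusted p = 0.161). miR-430a-5p was higher in N. furzeri (7.93, SE 0.90, adjusted p = 0.000147). It passed the filter on low counts through its N. furzeri libraries only, so it had to differ, and the size of that fold is uncertain. Of the other 3 members tested, 1 was called, where 21.7% of the 157 miRNAs tested were called, and 1 had groups that did not overlap, as did 37.6% of all tested. miR-430i-3p was at -0.75 (SE 0.68). For miR-430c-3p the call was lost when N. furzeri replicate 1 (-2.84, adjusted p = 0.0558) or 3 (-3.16, adjusted p = 0.0894) was left out, and leaving out A. striatum replicate 3 gave -2.71, and -0.90 for miR-430a-3p. For miR-430a-5p, leaving out A. striatum replicate 2 gave 9.02.

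Ratios within the family separated these species completely. The log2 ratio of miR-430c-3p to miR-430a-3p was -2.97 ± 0.14 in N. furzeri and -1.13 ± 0.21 in A. striatum (SD, n = 3 and 4), so it was lower by 1.84 in N. furzeri, a 3.58-fold higher ratio in A. striatum. The log2 ratio of 5p to 3p arms was -8.27 ± 0.26 in N. furzeri and -17.9 ± 1.60 in A. striatum with 0.5 counts added to both, where the A. striatum value rests on those 15 counts. As every 5p count of N. furzeri was of miR-430a-5p, this ratio repeats that member's difference and adds no separate evidence. Each ratio, like the family share (12.4% ± 8.32 in N. furzeri and 46.2% ± 14.7 in A. striatum), had an exact permutation p of 0.0286, the smallest that 35 splits can give, and an adjusted p of 0.0762. For the share, the separation held against miRNA counts only. Against all 18 to 33 nt reads the species overlapped, at 0.917% to 6.87% in N. furzeri and 3.30% to 14.3% in A. striatum. The difference was then -4.24 points (exact permutation test, adjusted p = 0.416). In pool 3 alone, with 3 libraries of each species, the log2 difference in the miR-430c-3p ratio was -1.77 (exact permutation p = 0.1, the smallest possible), and the lane 1 library of A. striatum had a ratio of 52.3, close to the 51.3 of its replicate 2.

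N. furzeri in diapause was set beside the same A. striatum libraries. As this comparison shares libraries with both above, its values stand beside theirs and add no separate evidence. Species, life style and diapause state all differ between these groups, so their parts cannot be told apart. miR-430a-3p had 2.38%, 9.80%, 5.79%, 1.74% and 2.95% of counts in diapause replicates 1 to 5, all below A. striatum (log2 fold change -2.80, SE 0.57, edgeR adjusted p = 0.00340). miR-430c-3p had 0.180%, 1.40%, 0.641%, 0.121% and 0.260%, also all below (-4.84, SE 0.68, adjusted p = 0.000512). miR-430a-5p was higher (6.87, SE 0.87, adjusted p = 0.000261), again with the filter passed through N. furzeri only; it was 7.89 with A. striatum replicate 2 left out. miR-430i-3p did not pass (-1.24, SE 0.61, adjusted p = 0.125). Of the 3 members other than miR-430a-5p, 2 were called, where 37.3% of the 158 miRNAs tested were called, and 2 had groups that did not overlap on the TMM scale, as did 31.0% of all tested.

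The family share, at 5.07% ± 3.87 in N. furzeri in diapause and 46.2% ± 14.7 in A. striatum (SD, n = 5 and 4), differed by -41.1 percentage points (exact permutation p = 0.00794, adjusted p = 0.0423). The log2 ratio of miR-430c-3p to miR-430a-3p was lower by 2.28 in N. furzeri and that of 5p to 3p arms higher by 9.97, with the same p-values. All 5p counts of N. furzeri in diapause were of miR-430a-5p, so the 5p to 3p result repeats that member's difference and adds no separate evidence. Its A. striatum side rests on 15 counts of 5p arms. With any library left out the adjusted p was 0.0762 for the share and for each ratio, as fewer splits remain. In pool 3 alone (2 diapause libraries against 3) the differences were -40.0 points, -2.32 and 9.76, with an exact permutation p of 0.1, the smallest possible.

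**Figure D5:**
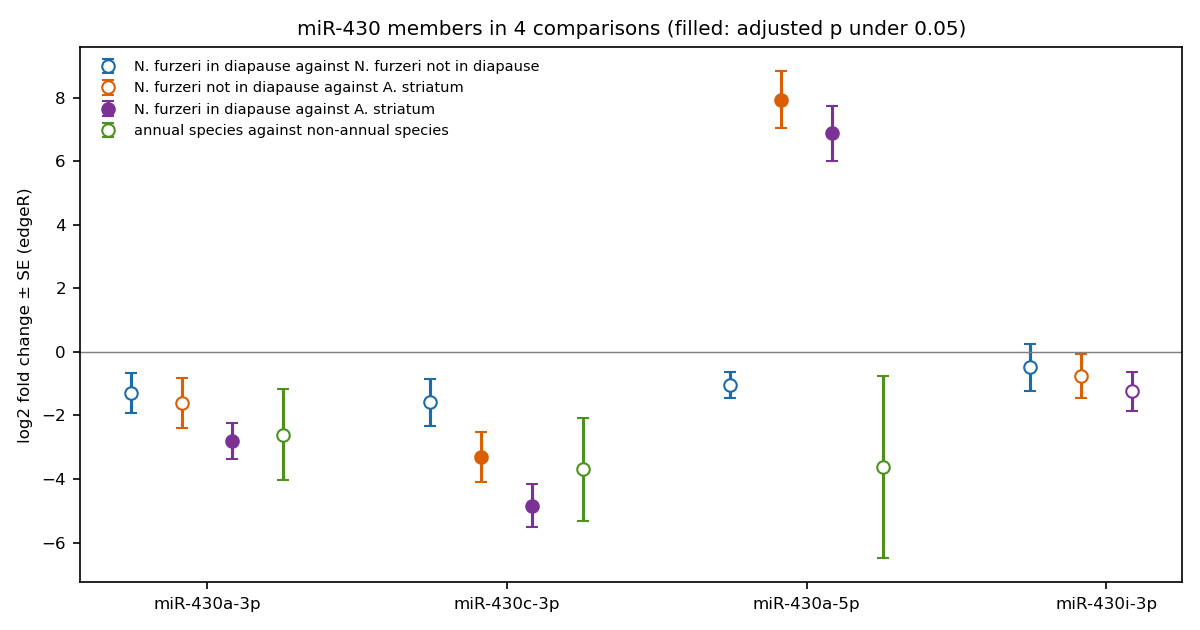
Points are edgeR log2 fold changes with SE for the miR-430 members tested in each of 4 comparisons, filled where the adjusted p was under 0.05; a positive value is higher in the group named first. miR-430c-3p lies at -3.31 and -4.84 against A. striatum. miR-430a-5p lies at 7.93 and 6.87 there, but it passed the filter on low counts through N. furzeri only, so it had to differ. No member is filled between N. furzeri states or between annual and non-annual species.

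Annual and non-annual species were compared with counts summed per species, 3 against 5, so that all N. furzeri libraries stood for 1 value. The annual species other than N. furzeri were sequenced in diapause and the non-annual species were not, so life style and state cannot be told apart, and relatedness of the species was not modelled. The family share averaged 2.86% ± 3.03 in annual and 27.5% ± 26.0 in non-annual species (SD, n = 3 and 5), a difference of -24.6 percentage points (exact permutation p = 0.143, adjusted p = 0.254). Without R. cylindraceus it was -15.1 points. A. leohoignei, labelled non-annual, overlapped the annual species. With it counted as annual, the difference was -31.3 points (exact permutation p = 0.0286, the smallest possible, adjusted p = 0.0653). As its own share was low, moving it to the annual species had to widen the difference, so this p-value adds no evidence.

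In edgeR's test 0 of 3 members tested were called between annual and non-annual species, against 0% of 174 miRNAs, with 14 at an unadjusted p under 0.05; DESeq2 called 2, neither of them a member. The groups overlapped for all 3 members, while 4.60% of the miRNAs tested had groups that did not. Log2 fold changes were -2.61 for miR-430a-3p (SE 1.43, adjusted p = 0.505), -3.70 for miR-430c-3p (SE 1.61, adjusted p = 0.463) and -3.62 for miR-430a-5p (SE 2.87, adjusted p = 0.557). Each value depended on single species. With N. furzeri left out, miR-430a-3p came to -3.90, miR-430c-3p to -4.43 and miR-430a-5p to -6.07. Leaving out R. cylindraceus gave -1.85 for miR-430a-3p, and leaving out A. striatum gave -2.995 for miR-430c-3p. For miR-430a-5p, leaving out A. lineatus gave -1.50 and leaving out N. papilliferus -3.03. With library totals in place of TMM the median over all miRNAs moved to -1.19, against -0.18. No ratio passed between annual and non-annual species. The log2 ratio of miR-430c-3p to miR-430a-3p was -2.55 ± 0.81 in annual and -2.20 ± 3.18 in non-annual species (difference -0.35, exact permutation p = 0.875, adjusted p = 0.990), and turned to 0.69 without E. dageti monroviae. The log2 ratio of 5p to 3p arms was -10.5 ± 3.62 in annual and -12.6 ± 6.42 in non-annual species (exact permutation p = 0.696, adjusted p = 0.857).

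miR-430b-3p was too rare for its ratio to miR-430a-3p to be read. It had 5 counts in replicate 2 and 9 in replicate 4 of N. furzeri in diapause, 40 counts in replicate 4 of A. striatum, 1 in A. leohoignei and 399 in E. dageti monroviae. It was at 0 in the N. furzeri libraries not in diapause and in the other libraries. Of the 5 libraries with a count, 4 had lane 1 in their names, E. dageti monroviae among them. Whether those libraries shared a run is not stated, and the part of the lane was not tested. The exact permutation p of its ratio lay between 0.0536 and 1 over the 4 comparisons (adjusted p between 0.122 and 1), with the values of libraries or species at 0 set by the 0.5 counts added.

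The miR-17 relatives, whose seed holds most of the miR-430 seed shifted by a base and which are known to promote proliferation, gave 4 rows: miR-17a-5p, miR-20a-5p, miR-20b-5p and miR-93. They were far rarer than the family, at 0.0173% to 0.285% of counts over all libraries. In N. furzeri in diapause against not in diapause none of the 4 was called (median log2 fold change -0.35, beside 0.14 over all tested), and likewise in N. furzeri not in diapause against A. striatum (-0.34, beside -0.0042) and in annual against non-annual species (-1.03, beside -0.18). In N. furzeri in diapause against A. striatum, 1 of the 4 was called, where 37.3% of all tested were, and their median was -0.77, beside 0.22 over all tested. The called one, miR-20a-5p, was lower in N. furzeri in diapause (203 ± 65.6 against 403 ± 83.0 CPM, SD, n = 5 and 4; log2 fold change -0.99, SE 0.35, edgeR adjusted p = 0.0467), and that call ended in pool 3 alone (adjusted p = 0.115), with library totals only (0.226), without a filter (0.111) and without any of diapause replicates 1, 3, 4 and 5 or A. striatum replicates 1, 2 and 3. miR-17a-5p (175 ± 87.8 against 323 ± 173 CPM, -0.89, SE 0.51) did not pass.

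Among 99 other miRNAs averaging at least 50 CPM, those whose log2 level followed the summed family best over the 8 species means were miR-200a-5p of epithelia (Pearson r = 0.87), miR-203a-3p of skin (0.85), let-7g (0.85), miR-10b-2-3p (0.81) and miR-20b-5p (0.81). Those that ran most against it were miR-126a-3p of blood vessels (-0.92), miR-199-3p of mesenchyme (-0.91) and miR-375 of the endocrine pancreas (-0.89). These values describe 8 points that share library totals and TMM scaling. The ranking was not stable: 3 of the 5 stayed in the first 5 when library totals without the miR-430 rows replaced TMM, and 2 over the 18 libraries. Of the 3 that ran against it, 1 stayed in the last 3 with those library totals, where r was -0.60 for miR-126a-3p, -0.74 for miR-199-3p and -0.20 for miR-375, and 2 stayed over the 18 libraries. miR-200a-5p ranked first in all 3 settings, with r between 0.87 and 0.91, but its log2 level in C. occidentalis was 2.39, near the floor. The log2 level of miR-10b-2-3p was 1.65 in C. occidentalis and 2.83 in A. leohoignei, also near the floor. Of those that ran against the family, miR-126a-3p was at 2.91 in R. cylindraceus, near the floor, and at 3.12 in A. striatum. The level of miR-199-3p was 0 in R. cylindraceus and 2.48 in A. striatum.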

How the data were processed

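Raw counts of mature miRNAs were deposited for every library, with a further sheet of values for the same miRNAs that was not used and a sheet whose read totals after size selection (18 to 33 nt) served as an alternative total. Per the labels' protocols, total RNA went through the TruSeq small RNA preparation of Illumina. Quality filtering, adapter trimming and alignment are named per the file headers. Per the submitters' processing notes, the tools were Bowtie (1.1.2 and 1.0.0), bcl2fastq 1.8.3 and CASAVA 1.8.2. Not given in the sources used here: which reference was counted against, how many mismatches passed and where reads matching several members went, so near-identical members may share reads. Of the count table, 2 columns matching no sample and the total line, which names no miRNA and equals the sum of the rest, were left out. Sequences and genomic positions of the members were not analysed here.

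Groups came from the labels; replicate numbers follow sample order and pair nothing. No replicate libraries agreed within counting noise. In R 4.3.3, edgeR 4.0.16 (filterByExpr, TMM, quasi-likelihood test) was fitted on all miRNAs of each comparison, adjusted by Benjamini-Hochberg, and called at 0.05. SE is the log2 fold change divided by the root of the F statistic. Shares and log2 ratios (0.5 counts added) were tested over libraries or species by two-sided exact permutation, adjusted over 16 tests. Alternatives were DESeq2 1.42.0 and its size factors, TMM without the miR-430 rows, library totals only, other filters and totals, and 5 counts added. Further ones were lane 1 or pool 3 alone, strain MZM0410, other standings of N. furzeri and A. leohoignei, and each library or species left out. N. furzeri in diapause standing for its species was added after the data were examined. The tests were checked on simulated data. All 8 members are named, with the 5 most and 3 least similar miRNAs, and of the miR-17 relatives the 2 most abundant and any called. The members, lists and tests were chosen with earlier results of these data known.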

Additional observations from a re-analysis of the deposited data

Results flagged for a closer look

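In groups of 4 or 5 libraries or species, 3 of 19 sets of values had 1 library farther from the rest than Dixon's 95% limit. Chance gives about 1 in 20, but that rate does not hold for the miR-430b-3p sets, where most values were 0. N. furzeri diapause replicate 1, of strain MZM0403, had 10.6 counts of 5p arms per 1000 of 3p arms, while the other 4 diapause libraries had 2.90 to 4.23. N. furzeri diapause replicate 2 had 8.63 RPM of miR-430b-3p, from 5 counts, while replicate 4 had 2.19 RPM from 9 counts and was not flagged. A. striatum replicate 4 had 53.2 RPM of miR-430b-3p, from 40 counts, while the other A. striatum libraries had 0. With those at 0, any count in replicate 4 would have passed the limit.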

How the results depend on the processing

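Of 542 recomputed values, 485 were counted as unchanged. A share, ratio or fold change was so counted if it kept its direction and its side of the threshold. A number of called miRNAs or members was so counted if it stayed equal or close to the main number. A result that had not passed could thus count as unchanged while its size moved. The share in N. furzeri not in diapause against A. striatum (-33.8 points) was so counted in all 10 settings, at -38.1 to -4.24 points. In that comparison, pool 3 alone and leaving out A. striatum replicate 4 used the same libraries, and both were counted. In N. furzeri in diapause against A. striatum, leaving out a library ended the adjusted call of the share (-45.2 to -35.2 points), of the miR-430c-3p to miR-430a-3p ratio (-2.43 to -2.17) and of the 5p to 3p ratio (9.27 to 10.54), as fewer splits remain, and so did pool 3 alone (-40.0, -2.32 and 9.76). The count of called miRNAs was 22 with library totals only and 38 at 50 CPM, against 59, and 42 to 65 with a library left out. In N. furzeri not in diapause against A. striatum it was 19 and 17, against 34, and 7 to 44, with 1 or 2 members called, miR-430a-5p counted among them. Calls of higher miRNAs made up 4 of 19 with library totals only, against 12 of 34, and the median log2 fold change moved to -0.33. DESeq2 called 4 and 2 miRNAs where edgeR called 0.

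Directions that turned belonged to results that had not passed. The miR-430b-3p to miR-430a-3p ratio in N. furzeri not in diapause against A. striatum (-0.71) came to 0.083 with 5 counts added and 1.08 in pool 3, and to between -1.39 and 1.08 with a library left out. In annual against non-annual species (-0.44) it came to 0.15 with 5 counts added, 0.079 with N. furzeri in diapause standing for its species, and between -1.60 and 1.75 with a species left out, while the miR-430c-3p ratio lay between -1.40 and 0.69. The 5p to 3p ratio between N. furzeri states (0.38) came to -0.015 in pool 3 and -0.15 within MZM0410. miR-430i-3p there lay between -0.92 and 0.18 with a library left out; the cause of these turns was not tested. No paired analysis was possible because the labels give groups no shared replicate numbers. Depth limits miR-430b-3p, miR-430i-3p and the 5p rows most, as a count of 0 allows 0.718 to 8.07 RPM.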
